A study of Homo sapiens with 11 samples.

Results

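The genes described here are 8 enzymes or enzyme subunits of the mitochondrial tricarboxylic acid (TCA) cycle, CS, IDH2, IDH3A, OGDH, SUCLG1, SUCLA2, FH and MDH2, together with PCK2, the mitochondrial phosphoenolpyruvate carboxykinase. They were taken by name, with earlier results of these data known, and are 9 of the 60612 genes in the deposited table. RNA was sequenced from HCT-116 and RKO, a pair of long-established cell lines from human colorectal cancers, both grown in DMEM with fetal bovine serum. HCT-116 was sampled after 24 h with phenylacetaldehyde (PAA), an aromatic aldehyde (n = 3), and with medium holding 0.1% dimethyl sulfoxide (DMSO) as vehicle (n = 3). RKO was sampled with PAA for 24 h (n = 3) and with the same vehicle (n = 2, the replicates numbered 2 and 3). The labels give no time for the vehicle and no PAA dose. Nothing in them ties replicates to separate cultures, and the p-values below therefore rest on a spread between libraries that may be technical only.

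The TCA cycle oxidises acetyl-CoA in the mitochondrial matrix. Citrate synthase joins acetyl-CoA to oxaloacetate, a chain of dehydrogenases and a ligase takes the citrate to succinate, and fumarase and malate dehydrogenase bring the carbon back to oxaloacetate. The cycle also supplies carbon for synthesis, and PCK2 draws on it there, turning mitochondrial oxaloacetate into phosphoenolpyruvate, which can feed glycolytic intermediates and serine synthesis when glucose is short. PCK2 is known as a target of ATF4, the transcription factor of the amino acid and integrated stress response, and is the isoform that many tumour cells express in place of the cytosolic PCK1.

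With PAA the members moved in opposite directions. PCK2 mRNA rose 2.25-fold in HCT-116 and 2.40-fold in RKO, while no cycle enzyme rose in either line on the deposited scale (3 did in RKO when FPKM totals were made equal). In HCT-116 the cycle enzymes CS, IDH2, SUCLA2, FH and MDH2 fell, by 16.3% to 28.5% of their DMSO mean. In RKO the enzymes CS, OGDH, SUCLA2 and FH fell, by 18.3% to 37.2%. So CS, SUCLA2 and FH fell in both lines, IDH2 and MDH2 passed the test in HCT-116 and OGDH in RKO, and IDH3A and SUCLG1 passed it in neither. With equal FPKM totals CS and FH lost the call in RKO and SUCLA2 lost it in HCT-116, so none of the 3 kept both calls on that scale. These calls used limma's moderated test on log2(FPKM + 1) at an adjusted p of 0.05, where FPKM counts sequenced fragments per transcript length and library depth. Adding 1 makes the change of a weakly expressed gene look smaller than it was.

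Start regions of 3 members are shown because their RNA responded differently to PAA: PCK2 rose in both lines, SUCLA2 fell in both, and MDH2 was lower with PAA in HCT-116 and not in RKO. Each is the 250 bases before the gene's start in RefSeq (GRCh38.p14), written 5′ to 3′ on the gene's own strand, PCK2 from chr14:24094061-24094310 (plus strand), SUCLA2 from chr13:48001274-48001523 (minus strand) and MDH2 from chr7:76047856-76048105 (plus strand). Capitals mark a match to 1 of the searched motifs.
PCK2: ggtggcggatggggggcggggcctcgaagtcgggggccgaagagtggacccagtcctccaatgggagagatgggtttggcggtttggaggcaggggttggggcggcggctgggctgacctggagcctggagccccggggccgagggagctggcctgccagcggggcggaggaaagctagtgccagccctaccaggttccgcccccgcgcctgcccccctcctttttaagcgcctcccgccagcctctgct
SUCLA2: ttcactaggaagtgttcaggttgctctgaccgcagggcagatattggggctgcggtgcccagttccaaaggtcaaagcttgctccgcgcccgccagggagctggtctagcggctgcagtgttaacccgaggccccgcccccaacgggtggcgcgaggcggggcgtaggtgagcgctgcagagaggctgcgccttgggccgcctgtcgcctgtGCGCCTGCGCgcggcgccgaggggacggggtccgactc
MDH2: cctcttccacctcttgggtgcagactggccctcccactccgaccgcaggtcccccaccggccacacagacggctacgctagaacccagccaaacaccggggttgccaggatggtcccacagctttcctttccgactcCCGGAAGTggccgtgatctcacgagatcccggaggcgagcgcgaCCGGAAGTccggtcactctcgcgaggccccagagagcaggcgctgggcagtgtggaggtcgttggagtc

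The motifs were searched on both strands of the 8 members that RefSeq's table holds, all but OGDH, and of 35116 promoters in all. The composite element of ATF4 and C/EBP factors, TGATGNAA, occurred in 3.14% of all promoters and in 0 of the 8 members, PCK2 included. The NRF1 site, 10 letters read as GCGCA, any base and GCGC, occurred in 5.07% of all promoters and in SUCLA2 and IDH3A, on the strand opposite to the gene's own. The ETS site CCGGAAGT, which GABPA binds, occurred in 3.42% of all promoters and in MDH2 alone among the members, where 1 copy ends 106 and the other 62 bases before the start. The ERR element TCAAGGTCA, in 0.319% of all promoters, and the TATA box TATAAA, in 10.7%, occurred in 0 of the 8. None of the searched motifs overlapped another in these members. A match or its absence in this window is a description of letters only, and it holds for the RefSeq start alone.

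Facts of the whole data set that touch these genes were few. An FPKM of 1 was reached by 11634 to 12133 genes in each library. The tables hold FPKM and no counts, so no counting interval is given. EPCAM and the keratins KRT8 and KRT18, epithelial genes, were expressed in every library, with EPCAM at 87.3 to 95.5 FPKM in HCT-116 and 4.61 to 6.06 in RKO, and VIL1, an intestinal brush border gene, was at or near 0 in all. They come from a list of 8 epithelial, colorectal and mesenchymal markers, of which only 6 reached an FPKM of 1 in 2 or more libraries. With DMSO, 4 of these 6 were called lower in RKO and 0 higher, beside 30.7% and 33.4% of all tested genes. Their median log2 difference was -2.57 and the lowest -5.36. Of 10 markers of immune, stromal, endothelial and blood cells, 8 stayed under 1 FPKM in every library, PTPRC and CD3E among them at 0 throughout, while COL1A1 reached 2.55 and ACTA2 1.76 FPKM, and the sum of the 10 ran from 4.16 to 4.53 in HCT-116 with DMSO, 3.27 to 4.23 with PAA, 1.47 to 2.19 in RKO with DMSO and 1.29 to 2.10 with PAA. The share of all FPKM carried by genes of the mitochondrial genome was 39.3% (38.2% to 40.2%) in HCT-116 with DMSO and 31.3% (31.2% to 31.4%) with PAA, and 34.4% (33.8% to 34.9%) in RKO with DMSO and 18.4% (18.2% to 18.5%) with PAA. This share moved with the treatment, so the scaling between libraries matters for the small changes below, and it is taken up after the single genes.

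**Figure D1:**
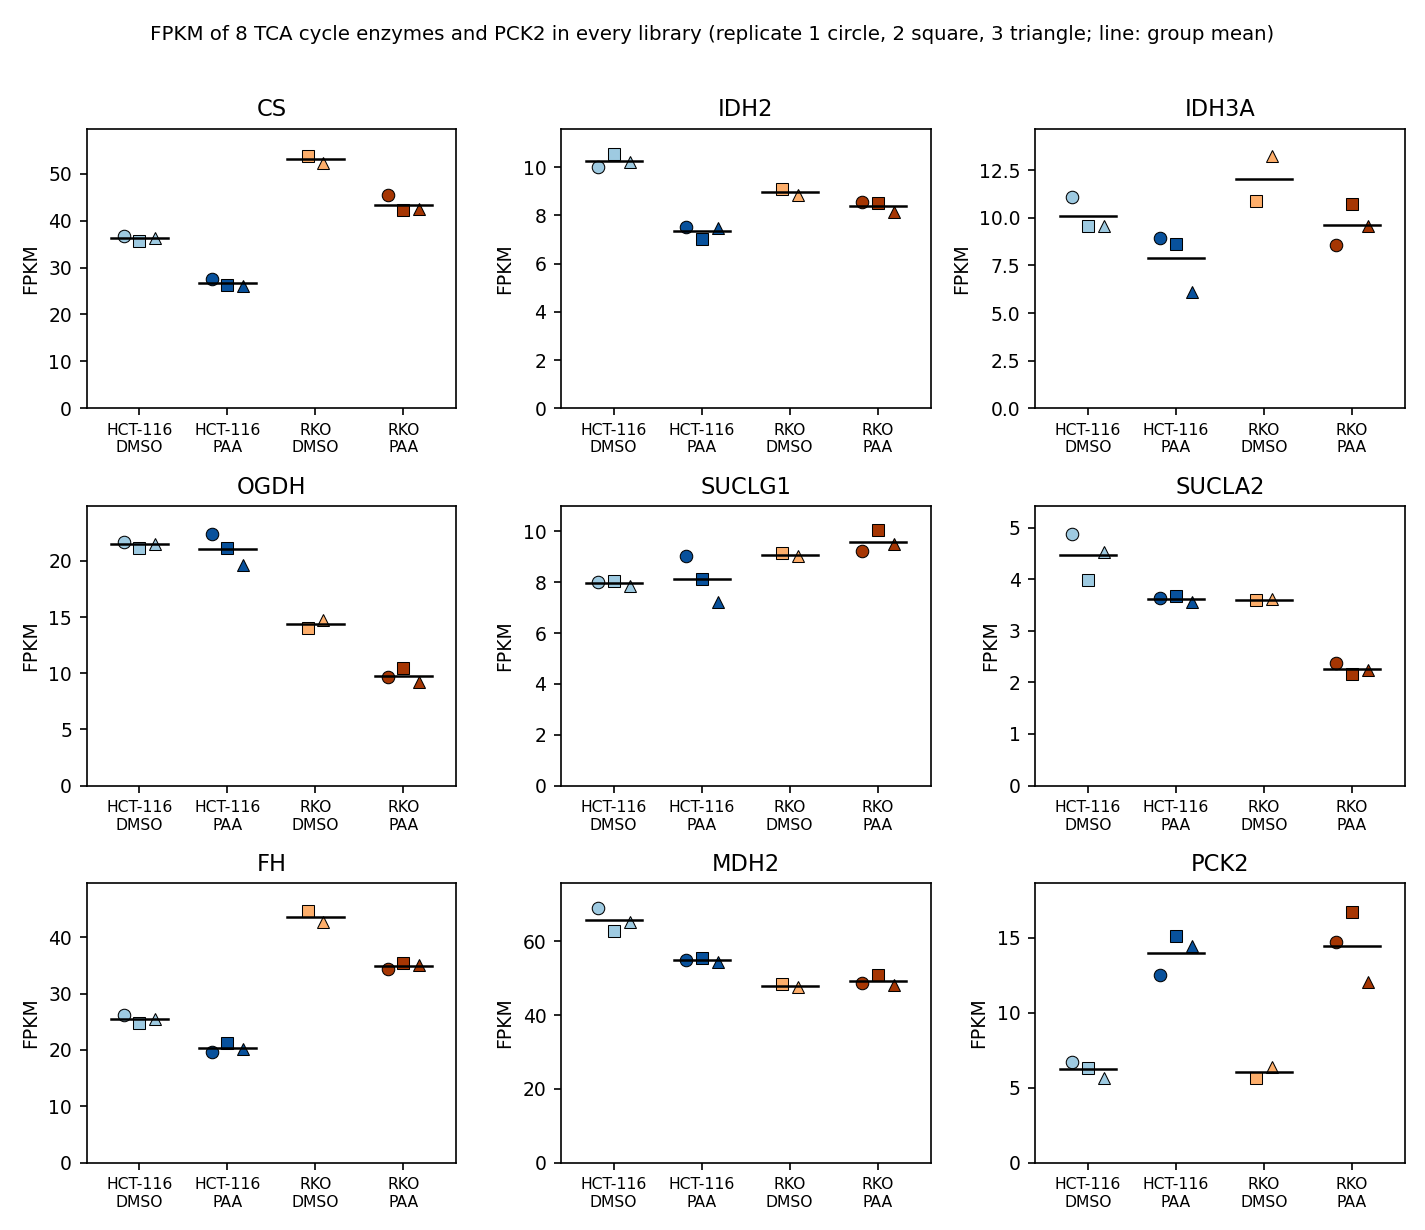
FPKM of each member (vertical axes, from 0) in every library, grouped by line and treatment (horizontal axes), with circles for replicate 1, squares for 2, triangles for 3 and a line at the group mean. PCK2 lies between 5.64 and 6.72 in the DMSO libraries and between 12.0 and 16.7 in the PAA libraries of the lines, while CS and FH are lower with PAA in each line.

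PCK2 (ENSG00000100889, chr14:24094053-24110598, plus strand) was the member with the largest change. Its FPKM was 6.72, 6.30 and 5.65 in the HCT-116 libraries with DMSO and 12.5, 15.1 and 14.4 with PAA. In RKO it was 5.64 and 6.42 with DMSO and 14.7, 16.7 and 12.0 with PAA. All 6 PAA libraries lay above all 5 DMSO libraries, and the lines overlapped under either treatment. The log2 change was 1.05 ± 0.117 (SE) in HCT-116 (adjusted p = 8.28e-05) and 1.13 ± 0.131 in RKO (adjusted p = 0.00017), above those of 98.7% and 99.0% of all tested genes. The difference between the lines was 0.08 with a 95% interval of -0.32 to 0.47 (adjusted p = 0.794), so an unequal response within that interval could not be detected here. Leaving out any 1 library kept the log2 change between 1.00 and 1.13 in HCT-116 and between 1.03 and 1.25 in RKO. In bulk RNA such as this, fewer cells making a transcript and less of it per cell cannot be told apart. PCK1, the cytosolic form, was at 0 in 9 of the 11 libraries and at most 0.00987 FPKM in the others.

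CS (ENSG00000062485, chr12:56271699-56300392, minus strand) encodes citrate synthase, the entry step of the cycle. With DMSO it stood at 36.8, 35.7 and 36.3 FPKM in HCT-116 and with PAA at 27.5, 26.3 and 26.1. In RKO it stood at 53.7 and 52.4 with DMSO and at 45.4, 42.3 and 42.4 with PAA. The groups did not overlap in either line. CS fell by 0.43 ± 0.0364 on the log2 scale in HCT-116 (adjusted p = 1.47e-05) and by 0.29 ± 0.0407 in RKO (adjusted p = 0.000557). The effects differed by 0.15 (95% interval 0.02 to 0.27), which did not pass after adjustment (adjusted p = 0.0705) but did when FPKM totals were made equal (0.32, adjusted p = 0.0059). On that scale the fall of CS in RKO was gone, at -0.005 (adjusted p = 0.965). Exons of AC073896.1 on the same strand share 3.44% of the CS exon bases, and that gene was at most 4.12 FPKM.

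The isocitrate step is held here by 2 genes. IDH2 (ENSG00000182054, chr15:90083045-90102504, minus strand) is the mitochondrial NADP-dependent isocitrate dehydrogenase, which makes NADPH and can run in reverse. Its FPKM was 10.0, 10.6 and 10.2 in HCT-116 with DMSO against 7.52, 7.03 and 7.48 with PAA, and 9.08 and 8.84 in RKO with DMSO against 8.56, 8.52 and 8.14 with PAA. In each line every PAA library lay below every DMSO library, by a wide gap in HCT-116 and a narrow one in RKO. The log2 change was -0.43 ± 0.0384 in HCT-116 (adjusted p = 2.06e-05) and -0.08 ± 0.043 in RKO (adjusted p = 0.164). The effect differed between the lines by 0.35 ± 0.0577 (RKO minus HCT-116, adjusted p = 0.00192), and it did so under all 22 alternatives run.

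IDH3A (ENSG00000166411, chr15:78131498-78171949, plus strand) encodes the catalytic subunit of the NAD-dependent enzyme that drives the cycle forward. It varied more among replicates than the other cycle enzymes. HCT-116 had 11.1, 9.54 and 9.55 FPKM with DMSO and 8.95, 8.64 and 6.10 with PAA, and RKO had 10.9 and 13.2 with DMSO and 8.56, 10.7 and 9.58 with PAA. PAA libraries again lay below DMSO libraries in each line, yet neither log2 change passed, at -0.33 ± 0.139 in HCT-116 (adjusted p = 0.0843) and -0.30 ± 0.156 in RKO (adjusted p = 0.169). The third PAA library of HCT-116 carried much of the first value, which was -0.17 without it (adjusted p = 0.246). The value in RKO was -0.17 without DMSO replicate 3 and -0.43 without DMSO replicate 2. With all nuclear genes scaled to a common total, IDH3A passed in HCT-116, at -0.39 (adjusted p = 0.0422). Exons of ACSBG1 on the opposite strand share 38.2% of the IDH3A exon bases, and whether counting used strand is not given in the sources used here. ACSBG1 itself was at most 0.132 FPKM.

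OGDH (ENSG00000105953, chr7:44606572-44709066, plus strand) encodes the first component (E1) of the 2-oxoglutarate dehydrogenase complex, which commits carbon to succinyl-CoA. In HCT-116 it read 21.7, 21.1 and 21.5 FPKM with DMSO and 22.4, 21.1 and 19.6 with PAA, so the groups overlapped. In RKO it read 14.01 and 14.7 with DMSO and 9.70, 10.4 and 9.18 with PAA, without overlap. OGDH fell by 0.51 ± 0.0623 on the log2 scale in RKO (adjusted p = 0.000223) and had a log2 change of -0.03 ± 0.0557 in HCT-116 (adjusted p = 0.718, 95% interval -0.15 to 0.10). The effects differed by -0.48 ± 0.0836 (adjusted p = 0.0025), again under all 22 alternatives.

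Succinyl-CoA ligase pairs the alpha subunit SUCLG1 with 1 of 2 beta subunits, SUCLA2 in the ADP-forming and SUCLG2 in the GDP-forming enzyme. SUCLA2 (ENSG00000136143, chr13:47745736-48037968, minus strand) had 4.88, 3.98 and 4.53 FPKM in HCT-116 with DMSO and 3.63, 3.68 and 3.56 with PAA, and 3.59 and 3.62 in RKO with DMSO and 2.38, 2.17 and 2.24 with PAA. The groups were separate in each line. SUCLA2 fell by 0.24 ± 0.06 on the log2 scale in HCT-116 (adjusted p = 0.0097) and by 0.50 ± 0.0671 in RKO (adjusted p = 0.000413). The effects differed by -0.26 ± 0.09 (adjusted p = 0.0582), and this difference passed without the first DMSO library of HCT-116, at -0.31 (adjusted p = 0.0215). In HCT-116 the fall no longer passed when every library was scaled to a common total (log2 change -0.15, adjusted p = 0.0859).

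SUCLG1 (ENSG00000163541, chr2:84423523-84460045, minus strand) passed no test of the PAA effect on the deposited scale, unlike its partner SUCLA2. In HCT-116 it had 8.01, 8.05 and 7.85 FPKM with DMSO and 9.02, 8.11 and 7.22 with PAA, and in RKO 9.13 and 9.04 with DMSO and 9.22, 10.0 and 9.51 with PAA. The PAA values of HCT-116 lay on either side of the DMSO values, and those of RKO lay above both DMSO values. The log2 change was 0.02 (95% interval -0.13 to 0.17, adjusted p = 0.849) in HCT-116 and 0.07 (95% interval -0.10 to 0.24, adjusted p = 0.51) in RKO. The RKO value had no stable sign, at -0.02 with median-of-ratios factors (adjusted p = 0.877) and -0.34 on summed transcripts (adjusted p = 0.519). With equal FPKM totals it was 0.33 and was called higher (adjusted p = 0.00516).

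FH (ENSG00000091483, chr1:241497603-241519761, minus strand) encodes fumarase, whose loss in the germline predisposes to renal tumours. It stood at 26.1, 24.8 and 25.5 FPKM in HCT-116 with DMSO and at 19.7, 21.3 and 20.2 with PAA, and at 44.6 and 42.6 in RKO with DMSO and 34.3, 35.4 and 35.0 with PAA. Both lines showed a clear gap between treatments. FH fell by 0.31 ± 0.0381 on the log2 scale in HCT-116 (adjusted p = 0.000167) and by 0.31 ± 0.0427 in RKO (adjusted p = 0.000428). The difference of the effects was -0.01, with a 95% interval of -0.14 to 0.12. With equal FPKM totals the change in RKO was -0.03 (adjusted p = 0.634).

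MDH2 (ENSG00000146701, chr7:76048051-76067508, plus strand) encodes mitochondrial malate dehydrogenase, which closes the cycle and serves the malate-aspartate shuttle. HCT-116 had 69.0, 62.7 and 65.3 FPKM with DMSO and 55.0, 55.5 and 54.3 with PAA. RKO had 48.3 and 47.7 with DMSO and 48.6, 51.0 and 48.3 with PAA. The groups were apart in HCT-116 and overlapped in RKO. MDH2 fell by 0.25 ± 0.0389 on the log2 scale in HCT-116 (adjusted p = 0.000644) and had a log2 change of 0.04 ± 0.0434 in RKO (adjusted p = 0.569). The effects differed by 0.29 ± 0.0583 (adjusted p = 0.0055), and under all 22 alternatives.

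Over the 9 members, 1 was called higher and 5 lower with PAA in HCT-116, where 47.1% of the 13881 tested genes were called, 21.7% higher and 25.3% lower. In RKO 1 member was called higher and 4 lower, where 40.0% of tested genes were called, 25.7% higher and 14.3% lower. The PAA and DMSO libraries did not overlap for 7 members in HCT-116 (56.5% of tested genes) and for 8 in RKO (61.6%). The median log2 change of the 8 cycle enzymes was -0.28 in HCT-116 and -0.29 in RKO, beside -0.01 and 0.06 over all tested genes. Their summed FPKM was 182 ± 5.68 (SD, n = 3) with DMSO and 150 ± 4.81 (SD, n = 3) with PAA in HCT-116, and 193 ± 0.949 (SD, n = 2) and 167 ± 3.08 (SD, n = 3) in RKO. The PAA effect differed between the lines for 3 members, higher in RKO for IDH2 and MDH2 and lower for OGDH, where 31.0% of tested genes were called, 21.3% higher and 9.68% lower. Without PAA, the lines differed in 6 members, where 64.1% of tested genes were called.

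**Figure D2:**
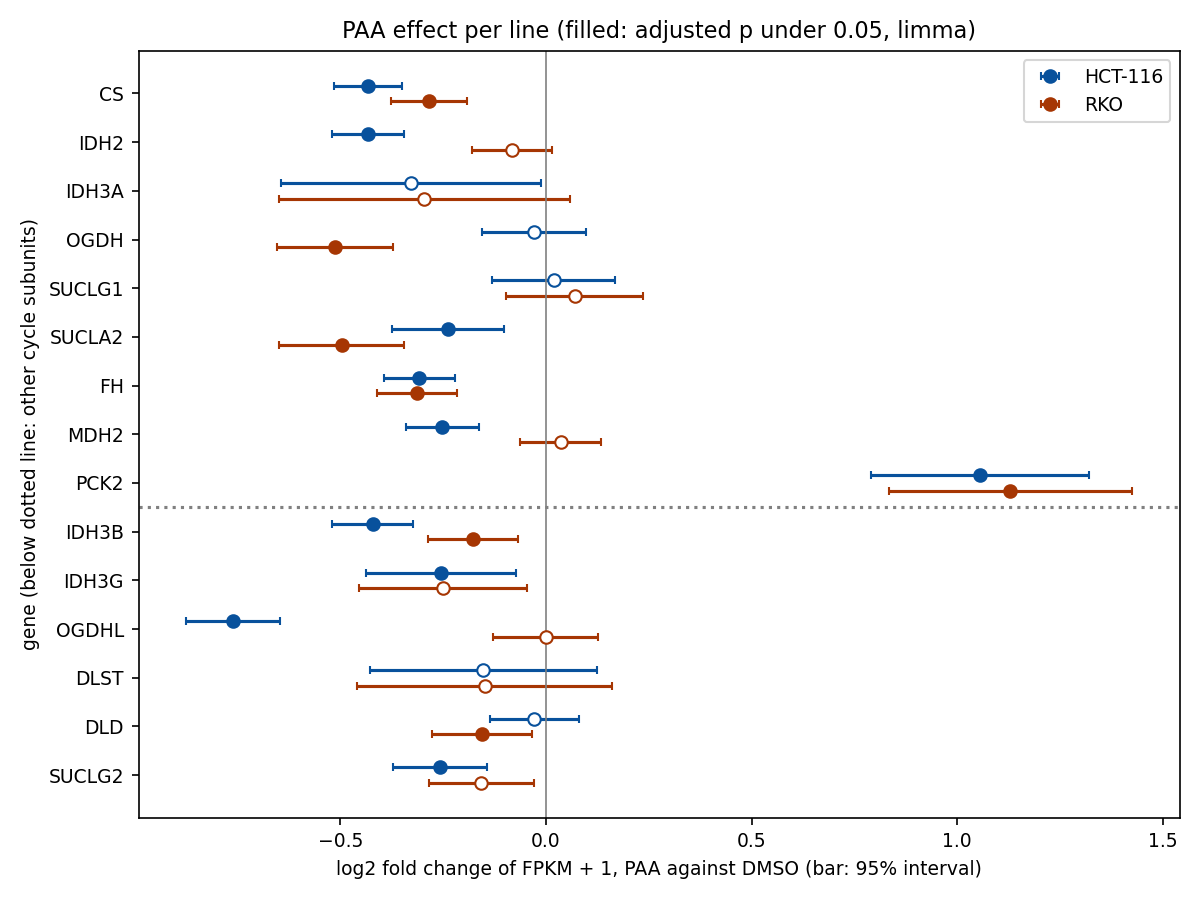
Log2 change of FPKM + 1 with PAA (horizontal axis) for the 9 members and, below the dotted line, 6 other cycle subunits (vertical axis), in HCT-116 (blue) and RKO (orange), with 95% intervals as bars and filled points for an adjusted p under 0.05 by limma. PCK2 lies near 1 in both lines (1.05 and 1.13), and the filled points of the cycle subunits all lie below 0.

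Scaling changed what could be said of the cycle enzymes in RKO and little of what could be said of PCK2. When each library was scaled to the same FPKM total, the median log2 change of all genes in RKO moved from 0.06 to 0.28 and the share of calls that were higher from 64.3% to 90.4%. On that scale CS had a log2 change of -0.005 (adjusted p = 0.965), FH -0.03 (adjusted p = 0.634), IDH2 0.17 (adjusted p = 0.0176), SUCLG1 0.33 (adjusted p = 0.00516) and MDH2 0.32 (adjusted p = 0.000582). Calls that held there were smaller, with OGDH at -0.25 and SUCLA2 at -0.29 in RKO and FH at -0.20 and MDH2 at -0.14 in HCT-116. Relative to the shifted median, CS, FH and IDH2 stayed below the middle gene and SUCLG1 and MDH2 lay just above it. With median-of-ratios factors and with quantile normalization IDH2 was instead called lower in RKO, at -0.17 (adjusted p = 0.0128) and -0.15 (adjusted p = 0.0292). With the mitochondrial genome's share left out of the total, RKO kept 1 member higher and 4 lower, and HCT-116 had 1 higher and 6 lower. PCK2 was called higher in both lines, OGDH and SUCLA2 lower in RKO, and CS, IDH2, FH and MDH2 lower in HCT-116 under every scaling run. With a common total the share of calls that were higher in HCT-116 was 61.3%, against 46.2% as deposited, and in RKO it was 49.4% with median-of-ratios factors and 50.1% after quantile normalization.

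**Figure D3:**
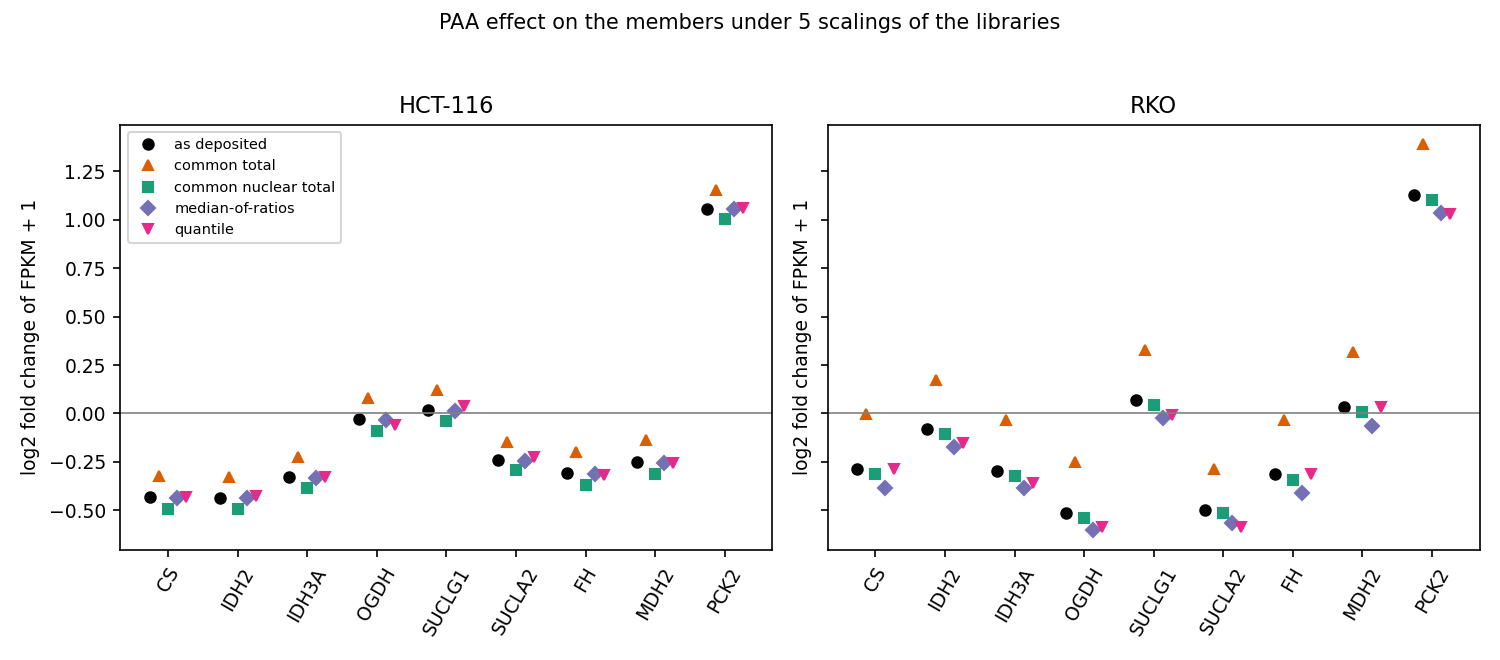
Log2 change of FPKM + 1 with PAA (vertical axes) for each member (horizontal axes) in HCT-116 and RKO under 5 scalings of the libraries, 1 symbol each. PCK2 stays near or above 1 under all 5, while in RKO the common total lifts every member, IDH2 from -0.08 to 0.17.

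Ratios of 2 members within 1 library do not depend on the scaling between libraries, and they gave the same picture of PCK2 against the cycle. The ratio of PCK2 to CS was 0.182, 0.176 and 0.156 in HCT-116 with DMSO and 0.455, 0.575 and 0.554 with PAA, a 3.07-fold difference of geometric means. In RKO it was 0.105 and 0.123 with DMSO and 0.324, 0.395 and 0.284 with PAA, or 2.92-fold. Against MDH2 the ratio of PCK2 was 2.69-fold higher with PAA in HCT-116 and 2.32-fold higher in RKO. With 3 libraries against 3 or 2, the smallest two-sided p of an exact permutation test is 0.1, and all these ratios had it (adjusted p = 0.14 over 14 tests), so no ratio could pass the threshold.

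OGDH and CS parted in opposite ways in the lines. The ratio of OGDH to CS was 0.590 to 0.593 in HCT-116 with DMSO and 0.754 to 0.815 with PAA, and 0.261 to 0.281 in RKO with DMSO and 0.214 to 0.247 with PAA (exact permutation p = 0.1 and 0.2). SUCLA2 to SUCLG1, the subunits of 1 enzyme, was 0.494 to 0.609 in HCT-116 with DMSO and 0.402 to 0.492 with PAA. The same ratio was 0.393 and 0.400 in RKO with DMSO and 0.216 to 0.259 with PAA, 0.595-fold of the former. In RKO its log2 change was -0.75 on gene values and -0.25 on summed transcripts, and the deposited gene value of SUCLG1 could not be rebuilt from its transcripts in any library. SUCLG2 to SUCLA2, the 2 beta subunits, was 3.56 and 3.73 in RKO with DMSO and 4.99 to 5.30 with PAA, and overlapped in HCT-116, at 3.65 to 4.35 and 3.68 to 4.21 (exact permutation p = 0.9). MDH2 to CS was 1.14-fold higher with PAA in HCT-116 and 1.26-fold higher in RKO, and the 2 isocitrate dehydrogenases, IDH2 to IDH3A, overlapped between treatments in both lines (exact permutation p = 0.7 and 0.4).

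**Figure D4:**
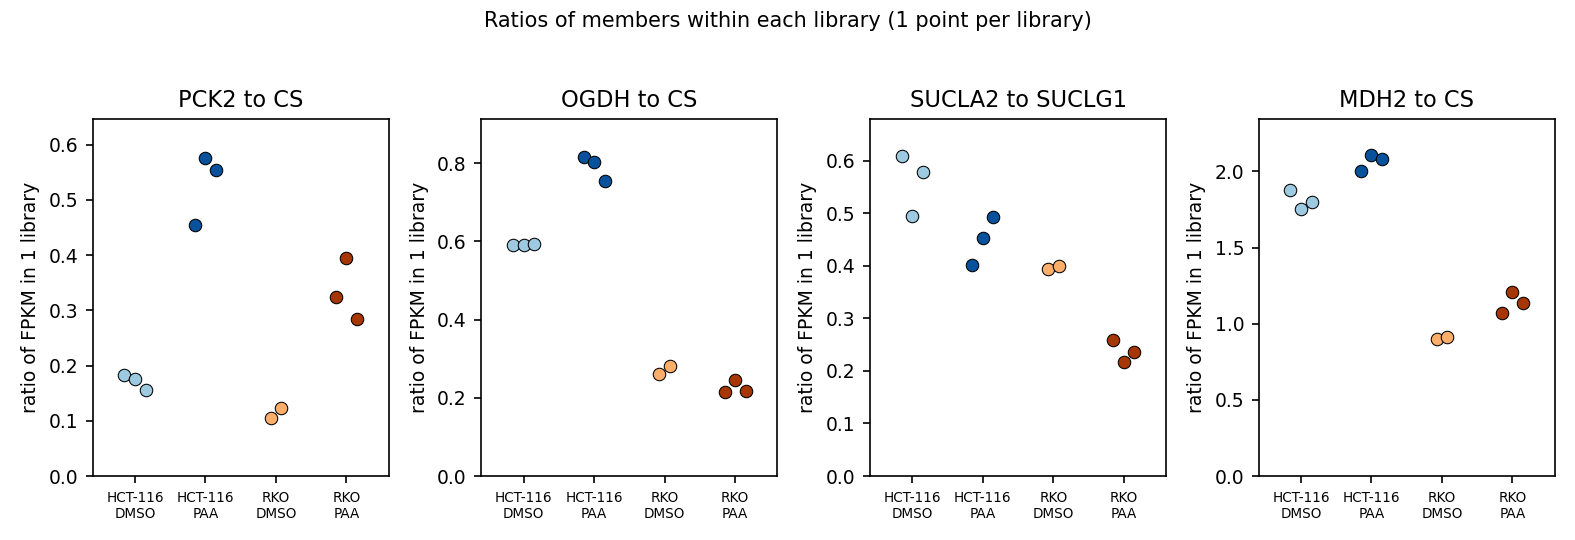
Ratios of FPKM of 2 members in the same library (vertical axes, from 0) by line and treatment (horizontal axes), 1 point per library. PCK2 to CS is 0.105 to 0.182 with DMSO and 0.284 to 0.575 with PAA, and OGDH to CS is higher with PAA in HCT-116 and lower with PAA in RKO.

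Before any PAA, 2 members were called higher in RKO and 4 lower, where 33.4% of tested genes were called higher and 30.7% lower. Together these calls are near the share over all tested genes (64.1%), so the count does not set the members apart. With DMSO, RKO had more FH than HCT-116 by 0.75 ± 0.0427 on the log2 scale (adjusted p = 3.12e-07), 1.71-fold, and more CS by 0.54 ± 0.0407 (adjusted p = 2.47e-06), 1.46-fold. RKO had less OGDH (log2 difference -0.55, adjusted p = 4.2e-05), MDH2 (-0.44, adjusted p = 1.53e-05), SUCLA2 (-0.24, adjusted p = 0.0105) and IDH2 (-0.18, adjusted p = 0.00536). The SUCLA2 difference did not pass without the second DMSO replicate of RKO (adjusted p = 0.0512) or in a fit of the compared groups alone (adjusted p = 0.055), and the IDH2 difference did not pass on summed transcripts (-0.10, adjusted p = 0.17). IDH3A (0.24, adjusted p = 0.216), SUCLG1 (0.17, adjusted p = 0.0717) and PCK2 (-0.04, adjusted p = 0.817) did not pass in the main fit. The groups did not overlap for 7 members, near the share over all tested genes (76.3%). SUCLG1 passed when the first or the third PAA library of HCT-116, which bear only on the shared spread, was left out (adjusted p = 0.0243 and 0.0222), and in a fit of the compared groups alone (adjusted p = 0.0182). Where the PAA effects differed, OGDH was lower in RKO already with DMSO and fell further. IDH2 and MDH2 were lower in RKO with DMSO and did not pass with PAA there on the deposited scale.

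Within HCT-116 with DMSO, the order of FPKM from high to low was MDH2, CS, FH, OGDH, IDH2, IDH3A, SUCLG1, PCK2 and SUCLA2, with IDH2 and IDH3A overlapping. With PAA, PCK2 came at rank 5, below OGDH and FH, which overlapped, and above SUCLG1, IDH3A and IDH2, of which neighbours overlapped. RKO with DMSO had CS ahead of MDH2 and FH, and then OGDH, IDH3A, SUCLG1, IDH2, PCK2 and SUCLA2, with SUCLG1 and IDH2 overlapping. With PAA, PCK2 came at rank 4 there, at 14.5 FPKM on average, above OGDH, IDH3A and SUCLG1, which overlapped in turn. The order between genes depends on the length the FPKM is divided by. The deposited gene value was the transcripts' summed signal over the merged exon length within 2% in 81.8% of the 99 pairs of member and library, in 0 of 11 for SUCLG1 and 4 of 11 for PCK2. The median ratio of gene value to summed transcript FPKM ran from 0.202 for SUCLA2 to 0.952 for IDH2. By summed transcript FPKM, SUCLA2 ranked above PCK2 with DMSO IDH2 was last in all groups, and PCK2 moved from rank 8 to rank 3 in HCT-116 and from rank 8 to rank 4 in RKO.

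Deposited transcript values of PCK2 rose as a sum, from 14.3, 12.6 and 13.3 FPKM with DMSO to 33.7, 38.7 and 29.05 with PAA in HCT-116, and from 15.7 and 12.9 to 33.1, 33.5 and 39.0 in RKO. On that sum the log2 change was 1.27 in HCT-116 (adjusted p = 3.36e-05) and 1.25 in RKO (adjusted p = 0.000136). The split over the 16 transcripts was not stable between replicates. PCK2-201, a coding transcript, held 30.5 FPKM in the second PAA library of RKO and 5.79 and 3.85 in the others, and PCK2-203, also coding, held 11.3 in 1 PAA library of HCT-116 and 10.6 in 1 of RKO and at most 0.0211 elsewhere. Coding transcripts held between 50.4% and 95.1% of the PCK2 sum, so no transcript is named as the one that rose.

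IDH3A showed the same kind of swing. IDH3A-206, a processed transcript with no coding sequence, held up to 76.7% of the summed FPKM of a library and was near 0 in the third PAA library of HCT-116 and the first of RKO, the libraries where the deposited gene value was lowest in its group. Coding transcripts made up 13.9% to 78.7% of the IDH3A sum over the libraries. IDH2, with coding shares of 78.5% to 100%, and SUCLA2, with 71.3% to 98.3%, also varied. The total coding share was steadier for 4 members, at 92.5% to 94.97% for CS, 95.7% to 99.9% for OGDH, 96.2% to 98.9% for FH and 88.2% to 95.6% for MDH2. Single transcripts of CS and OGDH still swung, CS-201 from 13.04% to 84.9% and OGDH-207 from 10.4% to 91.5% of the sum. SUCLG1 ranged from 31.8% in the third PAA library of RKO to 93.3%, and its summed FPKM there was 13.8 against 31.4 and 33.0 in the other PAA libraries. On summed transcripts, every cycle enzyme called in a line on gene values was called there too.

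**Figure D5:**
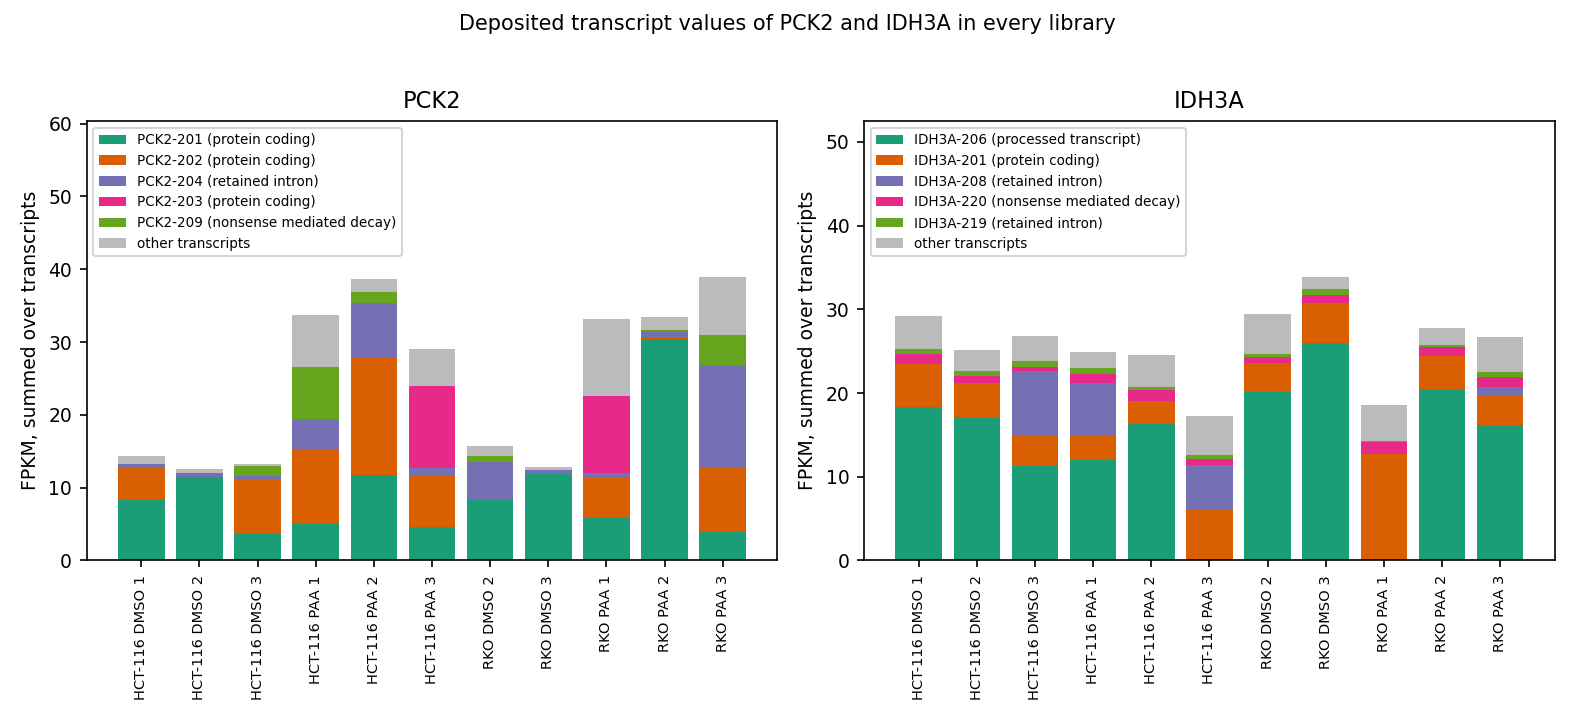
Deposited FPKM of the transcripts of PCK2 and IDH3A, stacked (vertical axes) for each of the 11 libraries (horizontal axes), with transcript names and types from GENCODE 29. The PCK2 stacks are 12.6 to 15.7 with DMSO and 29.05 to 39.0 with PAA, with changing make-up, and IDH3A-206 is near 0 in 2 PAA libraries.

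The rest of the cycle moved less evenly. Of 6 other subunits tested, 4 fell in HCT-116 and 2 in RKO, and 0 rose, with median log2 changes of -0.26 and -0.16. Over all tested genes 25.3% fell and 21.7% rose in HCT-116 and 14.3% fell and 25.7% rose in RKO, around medians of -0.01 and 0.06, and these shares are the background of each list count that follows. IDH3B, a regulatory subunit of the same NAD-dependent enzyme as IDH3A, went from 25.0 ± 0.591 FPKM (SD, n = 3) to 18.5 ± 0.823 (SD, n = 3) in HCT-116 (log2 change -0.42, adjusted p = 5.3e-05) and from 23.2 ± 0.955 (SD, n = 2) to 20.4 ± 0.681 (SD, n = 3) in RKO (-0.18, adjusted p = 0.0169). The call in RKO was lost without the second DMSO replicate (-0.14, adjusted p = 0.13). OGDHL, an OGDH relative, was low in HCT-116, at 1.57 FPKM with DMSO and 0.518 with PAA (log2 change -0.76, adjusted p = 3.5e-06), and at most 0.00941 FPKM in RKO. SUCLG2 fell in HCT-116 (-0.26, adjusted p = 0.00244) and had -0.16 in RKO (adjusted p = 0.0518), where it passed without the first or the second PAA library of HCT-116 (adjusted p = 0.0156 and 0.0307). IDH3G, the other regulatory subunit, fell in HCT-116 (-0.26, adjusted p = 0.0274) and lost the call without DMSO replicate 2 or 3 or PAA replicate 1 or 3 (adjusted p from 0.0566 to 0.0914). In RKO IDH3G had -0.25 (adjusted p = 0.0526), which passed without PAA replicate 2 or 3 of HCT-116, DMSO replicate 3 of RKO or PAA replicate 1 of RKO (adjusted p from 0.0371 to 0.0475). DLD, the lipoamide dehydrogenase shared with pyruvate dehydrogenase, fell in RKO (-0.16, adjusted p = 0.0441), a call that 10 of the 11 single-library omissions ended (adjusted p from 0.0506 to 0.249). DLST, the E2 component of the OGDH complex, passed in neither line, with a log2 change of -0.15 in each. The value in HCT-116 rested on its second PAA library, at 17.4 FPKM against 24.9 and 26.1, and was 0.0227 without it. Without that library DLST passed in RKO (adjusted p = 0.0131), and so did the difference between the lines (-0.17, adjusted p = 0.0406).

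At the pyruvate gate, 7 of 13 tested genes fell and 1 rose in HCT-116, beside 25.3% and 21.7% of all tested genes, and 3 fell in RKO, beside 14.3%. The median log2 changes were -0.44 and -0.14. PDP1, the phosphatase that switches pyruvate dehydrogenase on, fell in HCT-116 from 169, 171 and 165 FPKM to 22.0, 53.2 and 50.8 (log2 change -2.08, adjusted p = 0.000244). RKO held little PDP1, 3.40 and 2.94 FPKM with DMSO and 2.85 to 3.13 with PAA (-0.07, adjusted p = 0.896). PDK3, a kinase that switches the complex off, fell in both lines, from 1.19 to 0.263 FPKM in HCT-116 (-0.79, adjusted p = 4.04e-05) and from 2.51 to 1.51 in RKO (-0.48, adjusted p = 0.00197), although neither call held on summed transcripts (adjusted p = 0.261 and 0.0789). Genes on both arms of this switch were thus lower with PAA in HCT-116.

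Around glutamate and aspartate, 4 of 6 tested genes rose and 1 fell in HCT-116, and 3 rose and 1 fell in RKO. GOT1, the cytosolic aspartate transaminase, rose from 36.3 ± 1.45 (SD, n = 3) to 102 ± 1.58 FPKM (SD, n = 3) in HCT-116 (log2 change 1.47, adjusted p = 1.9e-08) and from 11.6 ± 0.43 (SD, n = 2) to 38.4 ± 1.4 (SD, n = 3) in RKO (1.65, adjusted p = 4.04e-08). GOT2, its mitochondrial counterpart, fell in both lines, by 0.38 and 0.46 on the log2 scale. GPT2, the mitochondrial alanine transaminase, rose by 0.88 in HCT-116 (adjusted p = 0.000153) and 0.54 in RKO (adjusted p = 0.00632). So PCK2 rose together with a cytosolic and a mitochondrial transaminase, while CS, FH and GOT2 fell.

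Of the carriers that move cycle intermediates across the inner membrane, 6 of 6 tested genes fell in HCT-116 and 2 in RKO. SLC25A10, the dicarboxylate carrier, fell by 1.21 in HCT-116 (adjusted p = 7.72e-05) and by 0.94 in RKO (adjusted p = 0.00099). SLC25A1, the citrate carrier, fell by 0.71 in HCT-116 (adjusted p = 0.0317), a call lost without DMSO replicate 1 or 3 or PAA replicate 2 or 3 (adjusted p from 0.0813 to 0.105), and had -0.08 in RKO (adjusted p = 0.867, from -0.40 to 0.24 with single libraries left out). Among the cytosolic counterparts and malic enzymes, 2 of 7 rose and 3 fell in HCT-116, beside 21.7% and 25.3% of all tested genes, and 3 fell in RKO, beside 14.3%, with medians of -0.03 and -0.01. ACLY, which splits exported citrate, fell by 0.59 in HCT-116 (adjusted p = 4.06e-07) and by 0.18 in RKO (adjusted p = 0.00183). ME1, the cytosolic malic enzyme, rose in HCT-116 from 29.9 to 47.2 FPKM (0.64, adjusted p = 3.82e-06) and was at most 0.0275 FPKM in RKO. Of 3 lipoylation genes tested, 0 passed in HCT-116 and 1 rose in RKO.

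Among 7 tested regulators of mitochondrial genes and MYC, 2 fell in HCT-116, beside 25.3% of all tested genes, and 2 in RKO, beside 14.3%. The shares are near the background in HCT-116, and the medians were -0.17 and -0.16. PPARGC1B, a coactivator of mitochondrial genes, fell in HCT-116 from 2.59 to 0.816 FPKM (log2 change -0.99, adjusted p = 1.29e-05) and had -0.16 in RKO (adjusted p = 0.215). TFAM, which packs the mitochondrial genome and helps start its transcription, fell in RKO from 16.7 to 9.96 FPKM (-0.70, adjusted p = 0.000346) and had -0.19 in HCT-116 (adjusted p = 0.0804). In HCT-116 TFAM passed without the first DMSO library, at -0.26 (adjusted p = 0.0308), and without the third PAA library of RKO (adjusted p = 0.0481). In the list of ATF4 and genes of its stress response and amino acid supply, 9 of 12 rose and 1 fell in HCT-116, and 10 rose and 1 fell in RKO. Their median log2 change was 1.13 in HCT-116 and 1.65 in RKO, beside -0.01 and 0.06 over all tested genes.

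Of these genes, ATF4 rose from 43.6 ± 4.86 (SD, n = 3) to 180 ± 67.1 FPKM (SD, n = 3) in HCT-116 (log2 change 1.96, adjusted p = 9.25e-05) and from 24.9 ± 3.59 (SD, n = 2) to 96.5 ± 11.4 (SD, n = 3) in RKO (1.92, adjusted p = 0.000318). Summed over its transcripts, ATF4 lost both calls and turned in HCT-116 (-2.09, adjusted p = 0.13). TRIB3, SESN2, DDIT3 and CHAC1, genes of the same stress response, rose by 2.16 to 2.66 in HCT-116 and by 1.74 to 3.30 in RKO. The enzymes of asparagine and serine synthesis ASNS, PSAT1 and PHGDH rose by 0.63 to 1.61 in HCT-116 and by 1.06 to 2.89 in RKO, and MTHFD2, of mitochondrial folate metabolism, by 0.65 and 0.99. PCK2, at 1.05 and 1.13, lay within the range of these genes in each line.

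Profiles over the 11 libraries were compared as log2(FPKM + 1) centred on each line's own mean, by root mean square distance. The 5 genes of 13881 nearest to PCK2 were CEBPG, at a distance of 0.114, GRB10 (0.127), IRS2 (0.128), MDFI (0.131) and TUBE1 (0.131). CEBPG, a C/EBP family transcription factor, averaged 13.4 FPKM with DMSO and 28.4 with PAA in HCT-116, and 11.2 and 23.8 in RKO. IRS2, an insulin receptor substrate, averaged 2.65 and 6.38 in HCT-116 and 1.59 and 4.78 in RKO. Among the members, CS and FH were nearest to each other (0.0688), IDH2 lay nearest to CS (0.0766), SUCLA2 to FH (0.0849), MDH2 to IDH2 (0.0942), OGDH to SUCLA2 (0.107), SUCLG1 to MDH2 (0.12) and IDH3A to FH (0.149). PCK2 stood apart, 0.539 from SUCLG1, the nearest other member. These distances describe 11 libraries that share the treatment contrast, and nothing about shared control follows from them.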

How the data were processed

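Total RNA was extracted with Trizol and sequenced from standard Illumina libraries, per the labels' protocols. The authors deposited FPKM per gene (60612 genes) and per transcript (229420), and both units are named per the file headers. Cutadapt 1.9, FastQC and GRCh38 are named in the submitters' processing notes. The aligner, quantifier, annotation release, use of strand and RNA selection are each not given in the sources used here. A gene value follows the merged exon length for most members, so a change in transcript use can move it. Values written as 0.0001, which stand for no signal, were set to 0. Gene names came from a table matched by ID (60401 IDs), gene and transcript coordinates from GENCODE 29, and promoters from RefSeq.

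Log2(FPKM + 1) was analysed with limma 3.58.1 in R 4.3.3, on the 13881 genes that reached an FPKM of 1 in 2 or more libraries. A model with 1 mean per group over all 11 libraries (residual degrees of freedom 7, prior 1.82) gave the PAA effect in each line, the difference of these effects and the difference between the lines with DMSO. P-values are two-sided and adjusted by Benjamini-Hochberg over all tested genes, with a threshold of 0.05. The code of the fit was run on simulated data with independent noise, changes in HCT-116 with PAA alone and no shift between libraries. That run does not bear on the scaling of the real libraries. Ratios within a library were compared by exact permutation. Alternatives covered the pseudocount (0.1 and 5), the filter on low values, 4 scalings, summed transcripts, a replicate block, no trend, the compared groups alone and each library left out.

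The members and the context lists were chosen with earlier results of these data known. Named genes were the members, 6 other cycle subunits, the 20 context genes with the largest change among those called without overlap in a line, and the 5 nearest profiles to PCK2. Outside this rule, GOT2 and PCK1 were named after their values were seen, as were the markers EPCAM, KRT8, KRT18, VIL1, PTPRC, CD3E, COL1A1 and ACTA2 and the overlapping genes ACSBG1 and AC073896.1. Some genes are not reported here.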

Additional observations from a re-analysis of the deposited data

Results flagged for a closer look

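The PAA effect differed between the lines for 3 of 9 members by limma's test of the difference itself, near the 31.0% of all tested genes called. Each difference is given here as RKO minus HCT-116 on the log2(FPKM + 1) scale. The difference was 0.35 for IDH2 (adjusted p = 0.00192), -0.48 for OGDH (adjusted p = 0.0025) and 0.29 for MDH2 (adjusted p = 0.0055). On the deposited scale IDH2 and MDH2 were lower with PAA in HCT-116 alone by their own tests, and OGDH in RKO alone. In RKO IDH2 was also called lower with median-of-ratios factors (-0.17, adjusted p = 0.0128) and quantile normalization (-0.15, adjusted p = 0.0292). With equal FPKM totals it was called higher there (0.17, adjusted p = 0.0176).

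Among the other subunits, the difference was 0.24 for IDH3B (adjusted p = 0.0203), which fell less in RKO, and 0.76 for OGDHL (adjusted p = 0.000123), which RKO hardly expressed. The IDH3B difference did not pass without the third DMSO replicate of RKO (0.20, adjusted p = 0.0853).

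Context genes also differed. PDP1 differed by 2.01 (adjusted p = 0.00587), ACLY by 0.42 (adjusted p = 0.00012), PPARGC1B by 0.83 (adjusted p = 0.00103) and ME1 by -0.66 (adjusted p = 0.000119), the last with ME1 near 0 in RKO. TFAM differed by -0.50 (adjusted p = 0.0134), and by -0.43 without the third DMSO replicate of RKO (adjusted p = 0.0611).

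In the ATF4 list, ASNS differed by 1.29 (adjusted p = 0.000358), PSAT1 by 0.89 (adjusted p = 1.4e-05) and PHGDH by 0.44 (adjusted p = 0.0103). MTHFD2 differed by 0.34 (adjusted p = 0.0108), TRIB3 by 0.54 (adjusted p = 0.000119) and CHAC1 by 1.14 (adjusted p = 4.74e-05). All of these rose more in RKO, and all were lower there with DMSO whichever library was left out. That log2 difference, RKO against HCT-116, ran from -2.43 to -2.23 for CHAC1, -1.46 to -1.21 for ASNS and -0.351 to -0.290 for TRIB3. For DDIT3 it ran from 0.663 to 1.05. With DMSO, 8 of the 12 listed genes were called lower in RKO and 3 higher, beside 30.7% and 33.4% of all tested genes. DDIT3 rose more in HCT-116, a difference of -0.92 (adjusted p = 0.0268) that 6 of the 11 single-library omissions ended (adjusted p from 0.0539 to 0.0825). These were HCT-116 DMSO replicate 2, HCT-116 PAA replicates 1 and 2, both RKO DMSO replicates and RKO PAA replicate 3. PCK2 showed no such difference that passed, at 0.08 (95% interval -0.32 to 0.47).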

How the results depend on the processing

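In HCT-116, members called with PAA stayed at 1 higher and 4 to 6 lower under all alternatives run. In RKO a common FPKM total gave 4 higher and 2 lower, and turned the log2 change of IDH2 to 0.17, IDH3B to 0.10, DLD to 0.12 and ACLY to 0.11. Summed transcripts turned DLD in RKO to 0.0434 and ATF4 in HCT-116 to -2.09. For the difference of effects, 2 members rather than 1 were called lower with a pseudocount of 0.1, median-of-ratios factors, quantile normalization and summed transcripts, SUCLA2 being added, and 1 to 2 when single libraries were left out. The share of called genes that were higher in RKO than in HCT-116 in that difference was 68.8%, against 86.0% when totals were made equal, 54.0% under median-of-ratios factors and 53.4% after quantile normalization. The DLST difference ran from -0.17 to 0.11 when single libraries were left out. The log2 ratio of SUCLG2 to SUCLA2 in HCT-116 changed by 0.0225, by -0.0196 with a pseudocount of 1 and by -0.0335 to 0.093 with single libraries left out. Among the other genes, calls in HCT-116 ended for IDH3G and SLC25A1 without the filter (adjusted p = 0.057 and 0.071) and with a common total (adjusted p = 0.212 and 0.0709), while TFAM passed with a common nuclear total (adjusted p = 0.025). In RKO, IDH3G and SUCLG2 passed under median-of-ratios factors (adjusted p = 0.0135 and 0.00924). The difference of effects did not pass for CHAC1 with a pseudocount of 5 (adjusted p = 0.1), PHGDH on summed transcripts (adjusted p = 0.0517), TFAM and DDIT3 with a common total (adjusted p = 0.0551 and 0.0562) and IDH3B with median-of-ratios factors (adjusted p = 0.0893) or summed transcripts (adjusted p = 0.0814). The cause was not tested.

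Deviations of replicates with the same number had r from -0.134 to 0.067 in HCT-116 and -0.142 to -0.0764 in RKO. In HCT-116 only PAA replicate 1 correlated best with its own number. The 2 DMSO libraries of RKO deviate as mirror images, so their r values differ in sign only. With so few libraries these values cannot show whether the numbers mark a shared culture or batch. With a replicate block, 5658 genes were called in HCT-116, 4058 in RKO and 2739 for the difference of effects (4307 without), and the counts of called members were unchanged at 1 higher and 5 lower, 1 and 4, and 2 and 1. With the block the difference of effects did not pass for IDH3B, DDIT3, PHGDH and MTHFD2 (adjusted p = 0.0937, 0.102, 0.0739 and 0.0797), nor the change in RKO for IDH3B and DLD (adjusted p = 0.0602 and 0.0631), while IDH3G passed in RKO (adjusted p = 0.0457). The block was not run for the comparison of the lines with DMSO, and the fit on the compared groups alone does not apply to the difference of effects. With 2 or 3 libraries a group and no counts, changes of a few percent and values near 0 are poorly resolved.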
